A study of Mus musculus with 5 samples.

Results

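The genes described here are 10 that dispose of reactive oxygen species or of the oxidised thiols they leave behind: the superoxide dismutases Sod1 and Sod2, catalase (Cat), the glutathione peroxidases Gpx1 and Gpx4, the peroxiredoxins Prdx1 and Prdx5, thioredoxin (Txn1), its binding partner Txnip and heme oxygenase 1 (Hmox1). They were picked by symbol as a functional group. All 10 were found as features of their own among 34315 features of the granulocyte tables and 38166 features of the KSL tables. RNA sequencing of polyA-selected RNA covered 5 libraries of C57BL/6 mice. Granulocytes were sorted as Gr1+ cells from the marrow of mice aged 12 months; their 2 libraries are technical replicates of 1 biological replicate, so n = 1 and their difference measures only technical spread. The other 3 libraries, 1 each, came from KSL cells (c-Kit+, Sca-1+, lineage-negative), a bone marrow population rich in blood stem and early progenitor cells: a knockdown of the long non-coding RNA LncHSC-1, a knockdown of LncHSC-2 and a knockdown control. All 3 KSL groups, control included, share a history: donors were injected with 5-fluorouracil (a drug toxic to cycling cells), Sca-1+ cells were transduced with a retrovirus carrying GFP, and GFP+ KSL cells were sorted after 2 days in culture, with thrombopoietin at 100 ng/ml and stem cell factor at 10 ng/ml. For these donors no age or number of mice was stated, and the features that correspond to LncHSC-1 and LncHSC-2 were not named, so the depth of each knockdown was not checked.

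Superoxide, made by the mitochondrial respiratory chain and, in phagocytes, by the NADPH oxidase, is turned into hydrogen peroxide by superoxide dismutases. Catalase, glutathione peroxidases and peroxiredoxins then break hydrogen peroxide down; the glutathione peroxidases draw on glutathione and most peroxiredoxins on thioredoxin, and NADPH pays for the reduction of both. Blood stem cells are known to lose quiescence when reactive oxygen rises, whereas neutrophils make large amounts of it on purpose when they kill microbes. With 1 library in each KSL group no difference between conditions can be tested, so values are given with 95% counting intervals, which cover counting error only and compare libraries.

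The scaled count totals were 40.4 M in both granulocyte libraries and 20.5 M to 22.6 M in the KSL libraries. All 12 granulocyte markers listed for the check were at 5 FPKM or more in the granulocytes (FPKM being fragments per kilobase of feature, scaled to a fixed library size). In the control KSL library 7 of these 12 also reached 5 FPKM. All 12 KSL markers averaged 5 FPKM or more over the KSL libraries, and 2 of them reached it in the granulocytes. Of all features 17.7% reached it in the granulocytes and 23.9% in the control library. The granulocyte markers summed to 158385 FPKM in granulocytes and 199 in the control library. The KSL markers summed to 24.5 and 1593 FPKM. The 12 macrophage markers summed to 318 FPKM in the granulocytes, and 4 of them were at 5 FPKM or more: Mpeg1 at 200, Csf1r at 57.8, Cd68 at 36.5 and Emr1 at 16.0 FPKM. The other 8 ranged from 0.0323 FPKM for Timd4 to 2.88 FPKM for Vcam1. In KSL cells they summed to 57.3 FPKM in the LncHSC-1, 42.2 in the LncHSC-2 and 46.5 in the control library, with Timd4 at 0 in each. Only 2 of the 12, Mpeg1 and Cd68, averaged 5 FPKM or more there. Mpeg1 was at 24.3, 15.9 and 17.7 FPKM in the LncHSC-1, LncHSC-2 and control libraries. In bulk samples fewer cells of a type and less RNA per cell cannot be told apart.

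Stretches of 3 promoters are shown because they hold the motifs searched, and because Sod1 and Prdx1 took a small share of the set in granulocytes and Txnip stood furthest above control in each knockdown library. RefSeq windows of 250 bases before to 50 after the start site, in build GRCm38.p6, matched 9 of the 10 genes; Hmox1 had none. The antioxidant response element is bound by NRF2, the main activator of antioxidant genes, and its core was searched as TGACNNNGC on both strands; in both matches below it lies on the opposite strand. The forkhead motif was searched as GTAAACA, and the carbohydrate response element, through which glucose drives Txnip, as a pair of CACGAG copies separated by 5 bases, each also on both strands. The last 2 were added after the values were seen and chosen for Txnip, so their finding there is a description. Capitals mark the match.
Sod1, chr16:90220696-90220725 (+), antioxidant response element core: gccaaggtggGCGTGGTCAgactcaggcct
Prdx1, chr4:116685456-116685485 (+), antioxidant response element core: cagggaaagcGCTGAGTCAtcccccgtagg
Txnip, chr3:96557825-96557854 (+), forkhead motif: ttggaggcctgGTAAACAagggccaagtag
Txnip, chr3:96557866-96557895 (+), paired CACGAG copies: actgtgCACGAGGGCTGCACGAGcctccag

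The response element core stood at position −133 in Prdx1 and −56 in Sod1, counted from the start site. It was in 2 of the 12 windows that belong to the 9 genes, and in 12.4% of all 32851 windows. The forkhead motif at position −121 of Txnip was in 3.65% of windows, and the paired CACGAG copies at −85 were in 1 window of all, that of Txnip. The E-box CACGTG was in none of the member windows and in 7.15% of all. The Txnip matches do not overlap.

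The make-up of this antioxidant set differed greatly between granulocytes and KSL cells. Prdx5 alone took 44.4% of the summed FPKM of the 10 genes in granulocytes, against 5.58%, 4.97% and 5.11% in the LncHSC-1, LncHSC-2 and control KSL libraries, while Sod1 took 1.61% in granulocytes against 23.3%, 23.3% and 22.6%, and Prdx1 took 0.838% against 12.4%, 12.5% and 13.4%, in the same order of KSL libraries. Gpx1 and Txn1 were major members in every library. The sum itself was 1967 and 1961 FPKM in the granulocyte replicates and 1905, 2063 and 1962 FPKM in the LncHSC-1, LncHSC-2 and control libraries. Because the granulocyte and KSL tables were scaled separately, their levels are only listed next to each other, with no fold; shares and ratios within a library need no common scale. With 1 biological sample of each kind these are descriptions of the samples. Culture, 5-fluorouracil, retroviral transduction and cell type all differ between them and cannot be told apart. Age may differ too, since that of the KSL donors was not stated.

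**Figure D1:**
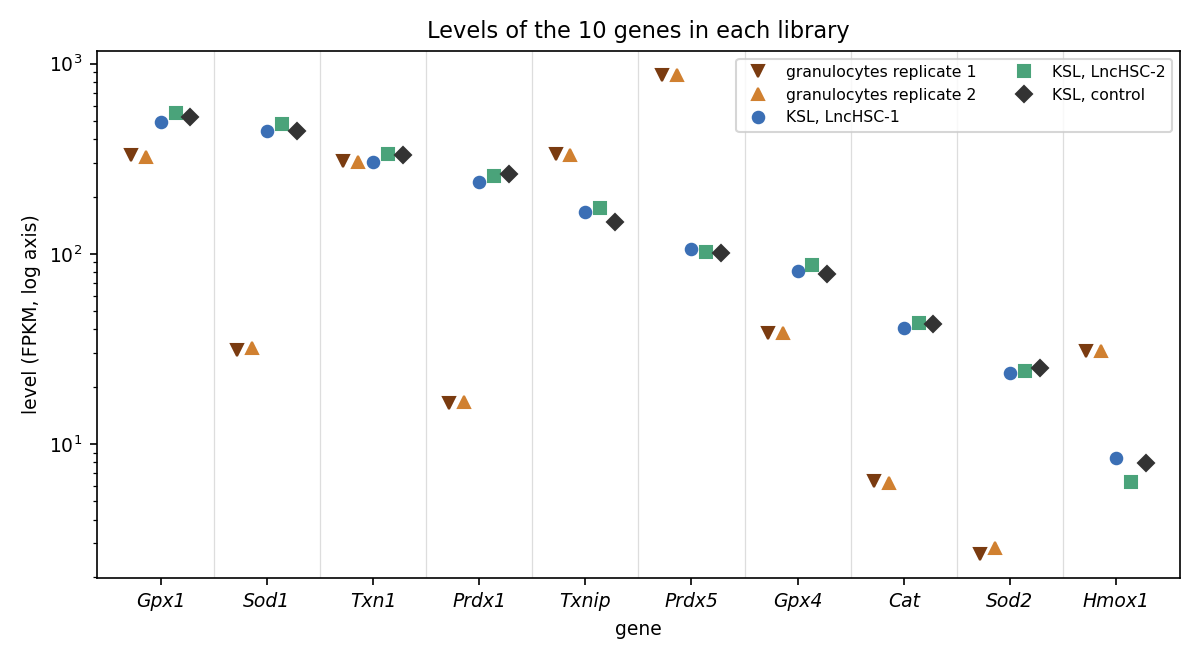
Level of each gene in FPKM (log axis) in every library, with granulocyte replicates as triangles and KSL libraries as circles (LncHSC-1), squares (LncHSC-2) and diamonds (control). Prdx5, Txnip and Hmox1 lie higher in the granulocyte tables, Sod1, Prdx1, Cat and Sod2 lie far lower there, and the tables were scaled separately.

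Sod1, the copper and zinc superoxide dismutase of the cytosol (mm9 chromosome 16, 90220987 to 90226569, plus strand), was at 31.1 and 32.04 FPKM in the granulocyte replicates. In KSL cells it was at 444 FPKM in the LncHSC-1, 481 in the LncHSC-2 and 444 in the control library. It was the second most abundant of the 10 genes in each KSL library and the sixth in granulocytes. Sod2, the manganese enzyme of mitochondria (chromosome 17, 13200705 to 13210985, plus strand), was at 2.64 and 2.85 FPKM in the granulocyte replicates, the lowest of the set there. It was at 23.5 FPKM in the LncHSC-1, 24.1 in the LncHSC-2 and 25.2 in the control library. Sod2 alone was below 5 FPKM in granulocytes, where Sod1 had a percentile of 95.2, and the ratio of Sod1 to Sod2 was 11.5 there against 18.9, 19.96 and 17.6 in the LncHSC-1, LncHSC-2 and control libraries. Recomputed from scaled counts with 1 feature length per gene for all libraries, the KSL ratios were 14.9, 15.7 and 13.9.

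Catalase, the peroxisomal enzyme that splits hydrogen peroxide without a reductant (chromosome 2, 103294061 to 103325310, minus strand), was at 6.40 and 6.26 FPKM in the granulocyte replicates. It was at 40.8 FPKM in the LncHSC-1, 43.5 in the LncHSC-2 and 42.5 in the control library. Among the 34309 features shared by both kinds of table, the catalase level had a percentile of 84.1 in granulocytes and 93.8 in the control KSL library. Gpx1, the cytosolic glutathione peroxidase (chromosome 9, 108241411 to 108242673, plus strand), was at 331 and 324 FPKM in the granulocyte replicates and at 495, 551 and 523 FPKM in the LncHSC-1, LncHSC-2 and control libraries. It was the most abundant member in all 3 KSL libraries and ranked 113th of the shared features in granulocytes. The ratio of Gpx1 to catalase was 51.7 in granulocytes against 12.1, 12.7 and 12.3 in the LncHSC-1, LncHSC-2 and control libraries.

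Gpx4, which reduces lipid peroxides in membranes and is known to hold back ferroptosis (chromosome 10, 79516255 to 79519184, plus strand), was at 38.5 and 38.2 FPKM in the granulocyte replicates. It was at 81.6 FPKM in the LncHSC-1, 87.6 in the LncHSC-2 and 78.7 in the control library. The ratio of Gpx1 to Gpx4 differed least of the 6 within-library ratios computed, at 8.53 in granulocytes against 6.06, 6.30 and 6.64 in the LncHSC-1, LncHSC-2 and control libraries, or 7.90, 8.21 and 8.65 in those libraries with plain lengths.

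The ratio of the peroxiredoxins differed most of these 6. Prdx5, the atypical peroxiredoxin of mitochondria, peroxisomes and cytosol (chromosome 19, 6981309 to 6984135, minus strand), was at 869.8 and 873.9 FPKM in the granulocyte replicates. It ranked 30th of all shared features there, and it was at 106 FPKM in the LncHSC-1, 103 in the LncHSC-2 and 100.4 in the control KSL library. Prdx1, the abundant cytosolic peroxiredoxin (chromosome 4, 116358204 to 116372605, plus strand, in the granulocyte table), was at 16.3 and 16.6 FPKM in the granulocyte replicates against 237, 257 and 262 FPKM in the LncHSC-1, LncHSC-2 and control libraries. Prdx5 therefore exceeded Prdx1 by 53.0 times in granulocytes and was at 0.448, 0.399 and 0.383 of it in the LncHSC-1, LncHSC-2 and control libraries.

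**Figure D2:**
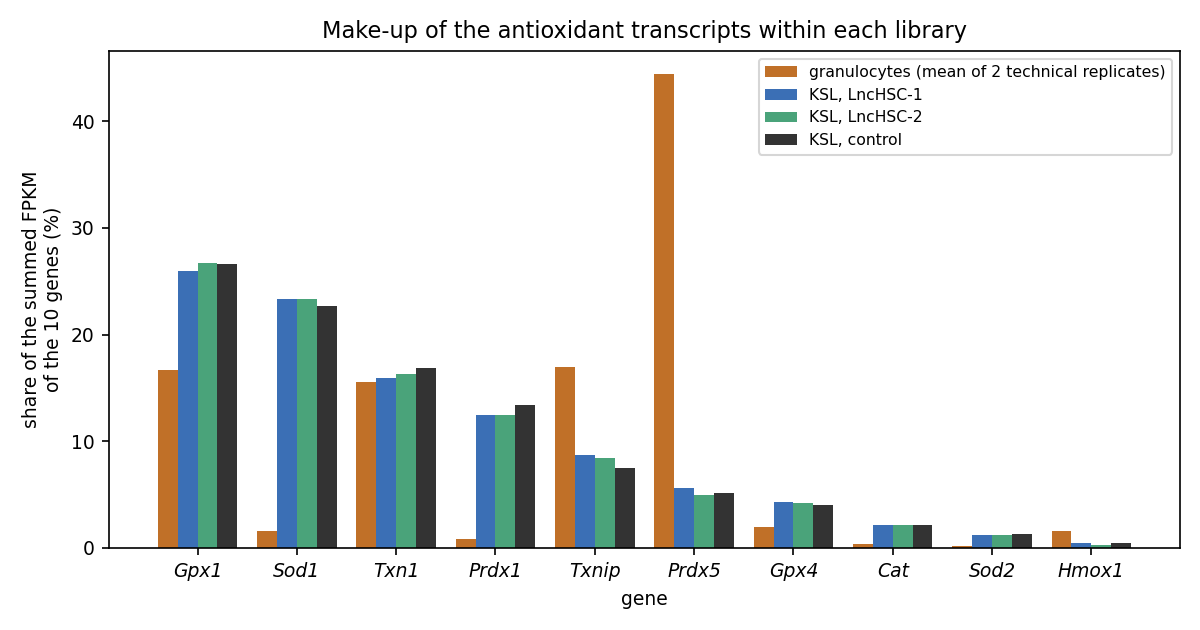
Share of each gene in the summed FPKM of the 10 genes, in percent, for granulocytes (mean of 2 technical replicates) and the 3 KSL libraries. The granulocyte bar of Prdx5 reaches 44.4%, whereas Gpx1, Sod1, Txn1 and Prdx1 lead in the KSL libraries.

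Txn1, the small redox protein that returns electrons to peroxiredoxins (chromosome 4, 57956245 to 57969283, minus strand), was the member whose share differed least, at 15.5% in granulocytes against 15.9%, 16.3% and 16.9% in the LncHSC-1, LncHSC-2 and control libraries. Its level was 307 and 304 FPKM in the granulocyte replicates and 303, 336 and 331 FPKM in those KSL libraries. Txnip, an arrestin-like protein that binds reduced thioredoxin and restrains glucose uptake (chromosome 3, 96361880 to 96365780, plus strand, in the granulocyte table), was at 333 and 332 FPKM in the granulocyte replicates. In KSL cells it was at 165 FPKM in the LncHSC-1, 174 in the LncHSC-2 and 148 in the control library. Txnip to Txn1 stood at 1.09 in granulocytes and at 0.546, 0.516 and 0.446 in the LncHSC-1, LncHSC-2 and control libraries.

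The Txnip value carries one uncertainty of annotation. The antisense gene Gm15441 (96359691 to 96370724, minus strand) spans the whole of Txnip. It was at 79.4 and 78.7 FPKM in the granulocyte replicates, against 0.737, 0.522 and 0.404 FPKM in the LncHSC-1, LncHSC-2 and control libraries, or 23.8% of the Txnip level in granulocytes and 0.446%, 0.301% and 0.274% of it in those KSL libraries. In GENCODE M21, 606 of the 1653 bases of 1 Gm15441 transcript lie in Txnip exons on the other strand, and the other Gm15441 transcript shares none. Whether the authors' counting used strand was not stated, so reads of the overlap cannot be assigned to one gene in either kind of table.

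Hmox1, which opens the heme ring and releases iron, carbon monoxide and biliverdin (chromosome 8, 77617517 to 77624492, plus strand), was at 30.9 and 30.8 FPKM in the granulocyte replicates and lay level with Sod1 there. It was the lowest member in every KSL library, at 8.45 FPKM in the LncHSC-1, 6.29 in the LncHSC-2 and 7.98 in the control library. Its percentile was 95.1 in granulocytes and 77.3 in the control library. The iron exporter Slc40a1, which is also abundant in macrophages and was chosen after its values were seen, was at 112 FPKM in granulocytes against 0.389, 0.259 and 0.564 FPKM in the LncHSC-1, LncHSC-2 and control libraries. Of the 10 heme and iron genes found, 6 were at 5 FPKM or more in granulocytes and 8 in the control library. Most had lower values in the granulocyte tables, which were scaled separately. Hmox2 was at 23.4, Slc48a1 at 14.9 and Tfrc at 3.95 FPKM in granulocytes, against 74.9, 83.7 and 49.5 FPKM in the control library. Slc40a1, Ftl1 and Hpx went the other way. These genes were likewise chosen after their values were seen. The part of macrophages in the granulocyte values was not tested; the levels of their markers, with Csf1r, Cd68 and Emr1 above 5 FPKM and Cd163 at 0.192 FPKM in granulocytes, are given with the marker check.

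**Figure D3:**
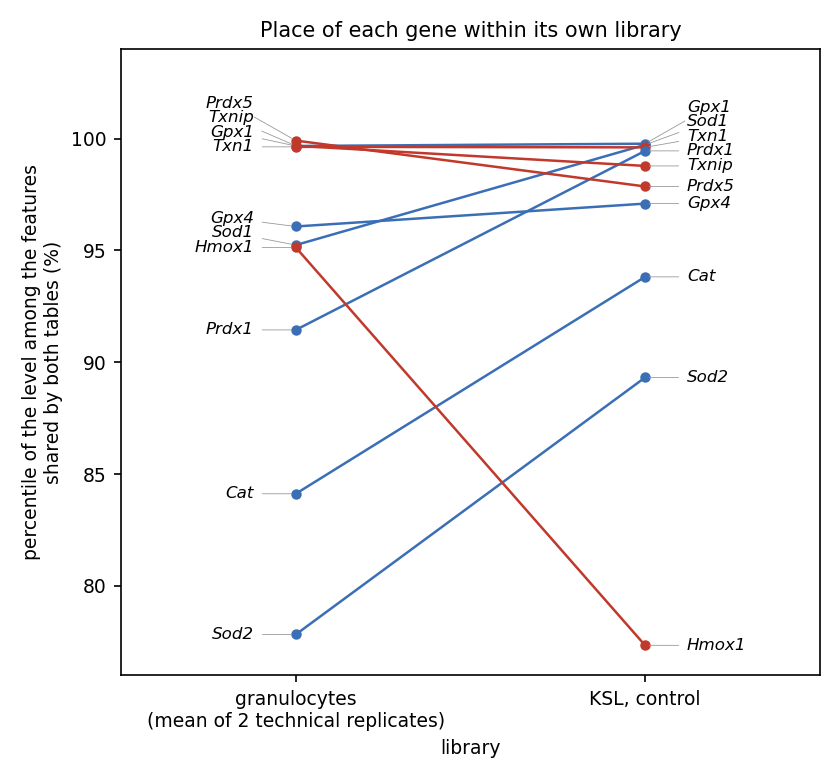
Percentile of each gene's level among the 34309 shared features, for granulocytes (left, mean of 2 technical replicates) and the control KSL library (right); red lines are higher in granulocytes and blue lines higher in KSL cells. Hmox1 lies at 95.1% in granulocytes and 77.3% in KSL cells, and Sod2 at 77.8% and 89.3%.

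By a floor of 5 FPKM, 9 of the 10 genes were expressed in granulocytes, where 17.7% of all features reached it; Sod2 was the exception. All 10 reached it in each KSL library, where 24%, 23.9% and 23.9% of features did in the LncHSC-1, LncHSC-2 and control libraries. The order of the 10 levels was the same in the 3 KSL libraries, and the ranges of neighbouring genes over these libraries did not overlap. In granulocytes the neighbours Txnip and Gpx1, and Sod1 and Hmox1, lay close together, without overlap of their technical replicates. The technical replicates differed by 0.446% of the mean for Txnip, the smallest difference, up to 7.62% for Sod2, the largest.

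Some genes of glutathione reduction and NADPH supply had high values in granulocytes and others were near 0. Of 130 related genes found in the tables, in 11 lists, 74 were at 5 FPKM or more in granulocytes, where 17.7% of all features were. Of the same 130 genes, 99 had a mean of at least 5 FPKM over the KSL libraries, as did 9153 of all 38166 features. The methionine sulfoxide reductase Sepx1, a selenoprotein that repairs oxidised methionine, was at 823 FPKM in granulocytes against 29.9, 29.9 and 31.4 FPKM in the LncHSC-1, LncHSC-2 and control libraries. Glutathione reductase, Gsr, was at 508 FPKM in granulocytes against 31.7, 31.8 and 30.9 FPKM in those libraries. Glutaredoxin, Glrx, was at 173 FPKM in granulocytes against 27.03, 25.9 and 25.8 FPKM in those libraries. Of the 17 genes of glutathione synthesis, reduction and glutaredoxins, 11 were at 5 FPKM or more in granulocytes and 12 in the control KSL library. The median in granulocytes was 5.79 FPKM, with Gss at 2.33, Gclc at 1.63, Glrx2 at 2.39 and Glrx3 at 2.66 FPKM. Sepx1, Gsr and Glrx were chosen after their values were seen, as were Gss, Gclc, Glrx2 and Glrx3 and, below, Pgd, G6pdx, Idh2, Me1, Mgst1, Prdx2 and Prdx3.

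Of the 11 genes of NADPH supply 8 were at 5 FPKM or more in granulocytes, with a median of 18.9 FPKM, and 9 in the control KSL library. Pgd was at 503 FPKM and G6pdx at 255 FPKM there, against 70.5 and 41.5 FPKM in the control KSL library, and Taldo1, a later enzyme of the pathway, was at 678 FPKM against 196 FPKM. Mitochondrial Idh2, another NADPH source, was at 3.37 FPKM in granulocytes and 121 FPKM in the control KSL library, Nnt, which makes NADPH in mitochondria, was at 6.33 FPKM in granulocytes and 21.01 FPKM in the control KSL library, and Me1 was at 0.0140 FPKM in granulocytes. Of the 16 glutathione transferases 4 were at 5 FPKM or more in granulocytes, with a median of 0.874 FPKM, and 11 in the control KSL library. Mgst1, the highest of them in granulocytes, was at 325 FPKM there and 4.34 FPKM in the control KSL library. The other peroxiredoxins shared the pattern of Prdx1: Prdx6 was at 47.6, Prdx2 at 13.5 and Prdx3 at 6.71 FPKM in granulocytes, against 124, 183 and 91.5 FPKM in the control KSL library. Of the 6 peroxiredoxins only Prdx5 had a higher value in the granulocyte tables than in the KSL tables, which were scaled separately; Prdx4 was at 3.33 FPKM in granulocytes and 39.1 FPKM in the control library.

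Between the KSL libraries no member differed much. On the scale of the log2 ratio of FPKM + 1, 0 of the 10 genes passed 1.5-fold in LncHSC-1 against control, where 2.23% of 9153 features with a mean of at least 5 FPKM did. In LncHSC-2 against control it was 0 of 10, against 1.77% of all, and in LncHSC-1 against LncHSC-2 again 0 of 10, against 2.31%. The first 2 comparisons share the control library. The median log2 ratio of the members was −0.03 in LncHSC-1 against control, where that of all features was −0.02. It was 0.03 in LncHSC-2 against control, with 0.00 for all features, and −0.10 in LncHSC-1 against LncHSC-2, with −0.03 for all.

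The counting interval of the read ratio excluded 0 for 5 of the 10 members in LncHSC-1 against control, 1 above and 4 below, where it did so for 39.7% of all features (14.8% above and 24.9% below). In LncHSC-2 against control it was 5 of 10, 4 above and 1 below, against 26.1% of features (13.4% above and 12.7% below). In LncHSC-1 against LncHSC-2 it was 8 of 10, 1 above and 7 below, against 36.1% of features (12.5% above and 23.6% below). The members other than Hmox1 had at least 1287 reads in each library, so small differences leave the interval, and how far replicates of a group would differ is not known from these libraries.

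**Figure D4:**
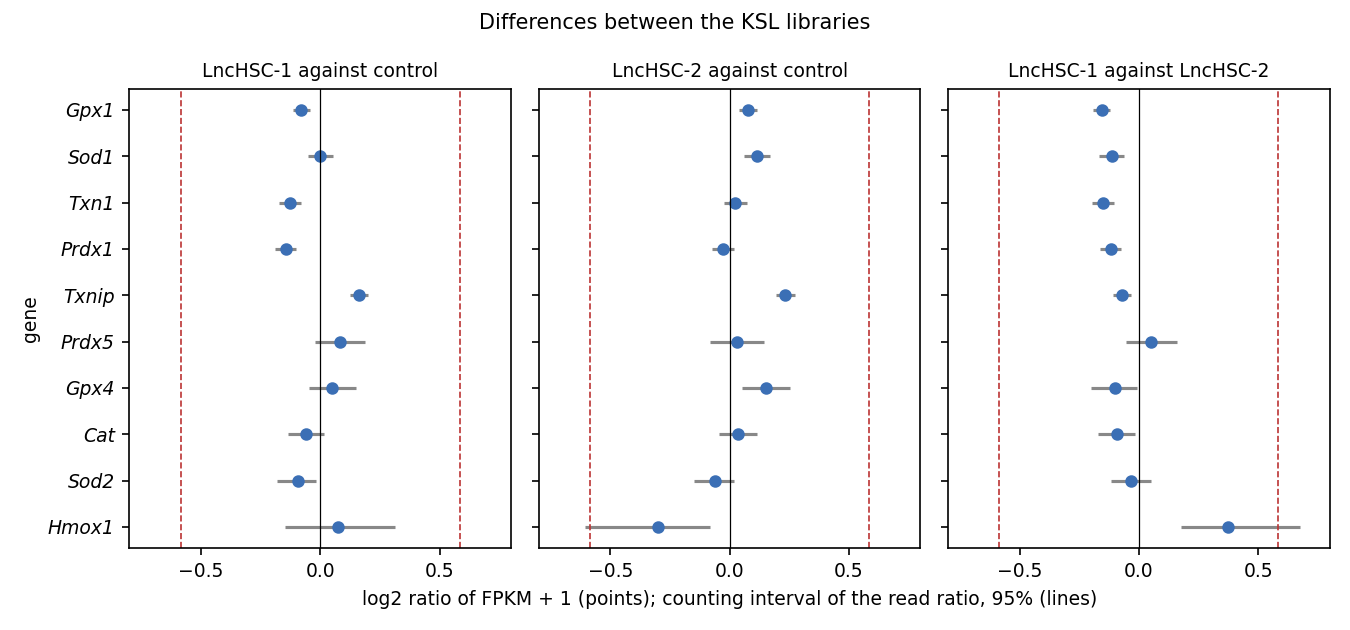
Log2 ratio of FPKM + 1 of each gene (points) with the 95% counting interval of its read ratio without pseudocount (lines), in the 3 comparisons of KSL libraries; dashed lines mark 1.5-fold. All points lie inside the dashed lines, and Txnip and Hmox1 are the members furthest from 0 in LncHSC-2 against control.

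Txnip was the member furthest above control in each knockdown library. From the levels given above, its log2 ratio was 0.16 in LncHSC-1 against control (counting interval 0.13 to 0.20) and 0.23 in LncHSC-2 against control (0.19 to 0.27), on 12883, 10970.5 and 9868 estimated reads in the LncHSC-1, LncHSC-2 and control libraries. These ratios exceeded those of 89.9% and 95.8% of all features. With the scaled counts as deposited they were 0.16 in LncHSC-1 and 0.09 in LncHSC-2 against control. All features had medians of −0.02 and −0.14 with these counts. By FPKM, the Txnip ratio in LncHSC-1 against LncHSC-2 was −0.07 (−0.11 to −0.03). The control library was thus the low one of the 3, and the 2 ratios rest on it together. The 10 megakaryocyte markers also had their smallest sum in the control library, at 796 FPKM in the LncHSC-1, 762 in the LncHSC-2 and 626 in the control library; none was at 0, 8 of the 9 above the floor were higher in LncHSC-1 and 7 of 9 in LncHSC-2 against control, with medians of 0.29 and 0.28, and their part in the result was not tested.

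Thioredoxin itself and Prdx1 stood on the other side in the LncHSC-1 library. Txn1 had a log2 ratio of −0.13 in LncHSC-1 against control (−0.17 to −0.08), and Prdx1 one of −0.15 (−0.19 to −0.10). In LncHSC-2 against control both were nearer to 0, at 0.02 (−0.02 to 0.07) for Txn1 and −0.03 (−0.07 to 0.02) for Prdx1. Set against LncHSC-2, the LncHSC-1 library was at −0.15 for Txn1 and −0.12 for Prdx1. Both comparisons that include LncHSC-2 depend on the scaling. With the scaled counts as deposited, LncHSC-2 against control was at −0.12 for Txn1 and −0.18 for Prdx1. All features had a median of −0.14 in that comparison. LncHSC-1 against control stayed at −0.13 for Txn1 and −0.15 for Prdx1 with these counts. Set against LncHSC-2, the LncHSC-1 library was then at −0.0019 for Txn1 and 0.03 for Prdx1.

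Hmox1 varied most over the KSL libraries, with a range of 0.37 on the log2 scale, and it was also the member with the fewest reads. It had 353, 213 and 286 estimated reads in the LncHSC-1, LncHSC-2 and control libraries. Its log2 ratio was −0.30 in LncHSC-2 against control (counting interval −0.61 to −0.08), below which lay 1.9% of all features, and 0.07 in LncHSC-1 against control (−0.15 to 0.31). Set against LncHSC-2, the LncHSC-1 library was at 0.37 (0.18 to 0.68). The LncHSC-2 library was the low one for Hmox1, and it also held the smallest sum of macrophage markers (given above). The 10 erythroid markers found summed to 329 FPKM in the LncHSC-1, 305 in the LncHSC-2 and 326 in the control library. Most of that sum was Car2 (235, 234 and 238 FPKM) and the entry Hbb-b1,Hbb-b2 (85.8, 61.8 and 80.2 FPKM), in the same order. In LncHSC-2 against control 1 of the 3 erythroid markers above the floor was higher and 2 were lower. For the 2 macrophage markers above it, 0 were higher and 2 lower. Vcam1 and Cd163, below the floor, were highest in the LncHSC-2 library. The part of such cells in the Hmox1 result was not tested.

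The remaining members differed by at most 0.16 on the log2 scale in any comparison. Gpx1 was lower in LncHSC-1 against control at −0.08 (−0.12 to −0.04) and higher in LncHSC-2 against control at 0.08 (0.04 to 0.11). Gpx4 was at 0.05 in LncHSC-1 and 0.15 in LncHSC-2 against control, and Sod1 at 0.00 and 0.11. Sod2 was at −0.10 in LncHSC-1 and −0.06 in LncHSC-2, catalase at −0.06 and 0.03, and Prdx5 at 0.08 and 0.03. With the scaled count columns as deposited, which place all features of LncHSC-2 at a median of −0.14 against control, 5 members changed direction in that comparison: Sod1, catalase, Gpx1, Prdx5 and Txn1. In LncHSC-1 against LncHSC-2, where these counts place all features at a median of 0.12, 6 members changed direction, Txnip (0.08) among them. Relative to the median in LncHSC-2 against control, Txnip stayed the highest and Hmox1 the lowest.

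The genes whose pattern over the 3 KSL libraries was most like that of Txnip, by Euclidean distance of both ratios to control among 7928 named genes, were Ctu1, Tsfm and Casp9, at distances of 0.00532, 0.00663 and 0.0117. For Hmox1 they were Lama5, Sec61a2 and Sema7a, at 0.0462, 0.0494 and 0.0504. With 3 libraries and 1 shared control, many genes lie near any such pattern by position alone.

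Among the 99 related genes above the floor, 1 passed 1.5-fold in LncHSC-1 against control, 2 did in LncHSC-2 against control and 2 in LncHSC-1 against LncHSC-2, all of them higher. Among all features 1.47%, 1.04% and 1.37% were higher by that rule in these comparisons. The related genes are all named genes, and of 7928 named genes above the floor 66, 31 and 59 passed either way. Of all 9153 features above it, 204, 162 and 211 did. The lists are the rest of the thioredoxin system, other peroxiredoxins and peroxidases, glutathione synthesis and glutaredoxins, glutathione transferases, the NRF2 pathway, heme and iron, NADPH supply, the Txnip family, peroxisomes, selenoprotein synthesis and the NADPH oxidase. Their medians lay between −0.07 and 0.08 in LncHSC-1 and between −0.06 and 0.05 in LncHSC-2 against control. Nfe2l2, which encodes NRF2, was at 49.4, 51.6 and 50.8 FPKM in the LncHSC-1, LncHSC-2 and control libraries, and Txnrd1, the reductase of thioredoxin, at 79.8, 79.98 and 83.99 FPKM. Tfrc, the transferrin receptor that brings iron into cells, had the lowest ratio of the 99 genes in LncHSC-1 against control at −0.29, with 40.4, 44.7 and 49.5 FPKM in the LncHSC-1, LncHSC-2 and control libraries. Arrdc3, an arrestin of the Txnip family, did not follow Txnip in LncHSC-1 against control, at −0.20, and was at 0.11 in LncHSC-2 against control. Prdx6 had the lowest ratio of the other peroxiredoxins, peroxidases and dismutase in LncHSC-1 against control, at −0.16, next to −0.15 for Prdx1. Nfe2l2 and Gclc were chosen after their values were seen.

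The related genes that passed belong to glutathione chemistry and the oxidase. Gclm, the modifier subunit of the enzyme that limits glutathione synthesis, was at 76.6 FPKM in the LncHSC-1, 82.1 in the LncHSC-2 and 51.05 in the control library. Its log2 ratio was 0.67 in LncHSC-2 against control (0.60 to 0.77) and 0.58 in LncHSC-1 against control (0.50 to 0.67), just short of 1.5-fold, while LncHSC-1 against LncHSC-2 was at −0.10. Of the 3 libraries the control was thus the low one for Gclm, and both ratios share it; with the scaled counts as deposited its ratio was 0.54 in LncHSC-2 and 0.58 in LncHSC-1. The megakaryocyte markers, with sums of 796, 762 and 626 FPKM in the LncHSC-1, LncHSC-2 and control libraries, were also lowest in the control; their part in the result was not tested. Its catalytic partner Gclc was at 22.2, 23.5 and 22.7 FPKM in the LncHSC-1, LncHSC-2 and control libraries.

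Gstt1, a theta-class glutathione transferase, was at 23.8 FPKM in the LncHSC-1, 15.1 in the LncHSC-2 and 13.02 in the control library, a log2 ratio of 0.82 in LncHSC-1 against control (0.67 to 1.08) and 0.63 against LncHSC-2. Mgst3, a microsomal transferase, was at 5.79, 8.07 and 4.83 FPKM in the LncHSC-1, LncHSC-2 and control libraries, with 81, 91 and 58 reads, and its ratio of 0.64 in LncHSC-2 against control had an interval of 0.25 to 1.24; with the scaled counts as deposited it was 0.58, and no related gene passed in that comparison. Cybb, the catalytic subunit of the phagocyte oxidase, was at 11.2 FPKM in the LncHSC-1, 6.75 in the LncHSC-2 and 7.29 in the control library, a ratio of 0.66 in LncHSC-1 against LncHSC-2 and 0.56 against control. The LncHSC-1 library stood highest for Gstt1 and Cybb, and it also held the largest sums of macrophage markers, of 11 B lineage markers (107, 62.3 and 59.8 FPKM in the LncHSC-1, LncHSC-2 and control libraries) and of 12 interferon response genes (1823, 1356 and 1276 FPKM). The sums of megakaryocyte markers (796, 762 and 626 FPKM) and of KSL markers (1769, 1594 and 1593 FPKM) were largest there too. Of the 12 KSL markers, however, 5 were higher and 7 lower in LncHSC-1 against control, with a median log2 ratio of −0.08. Ly6a made up most of the KSL sum, at 1211, 1025 and 1010 FPKM in the LncHSC-1, LncHSC-2 and control libraries. The part of these genes in the result was not tested.

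**Figure D5:**
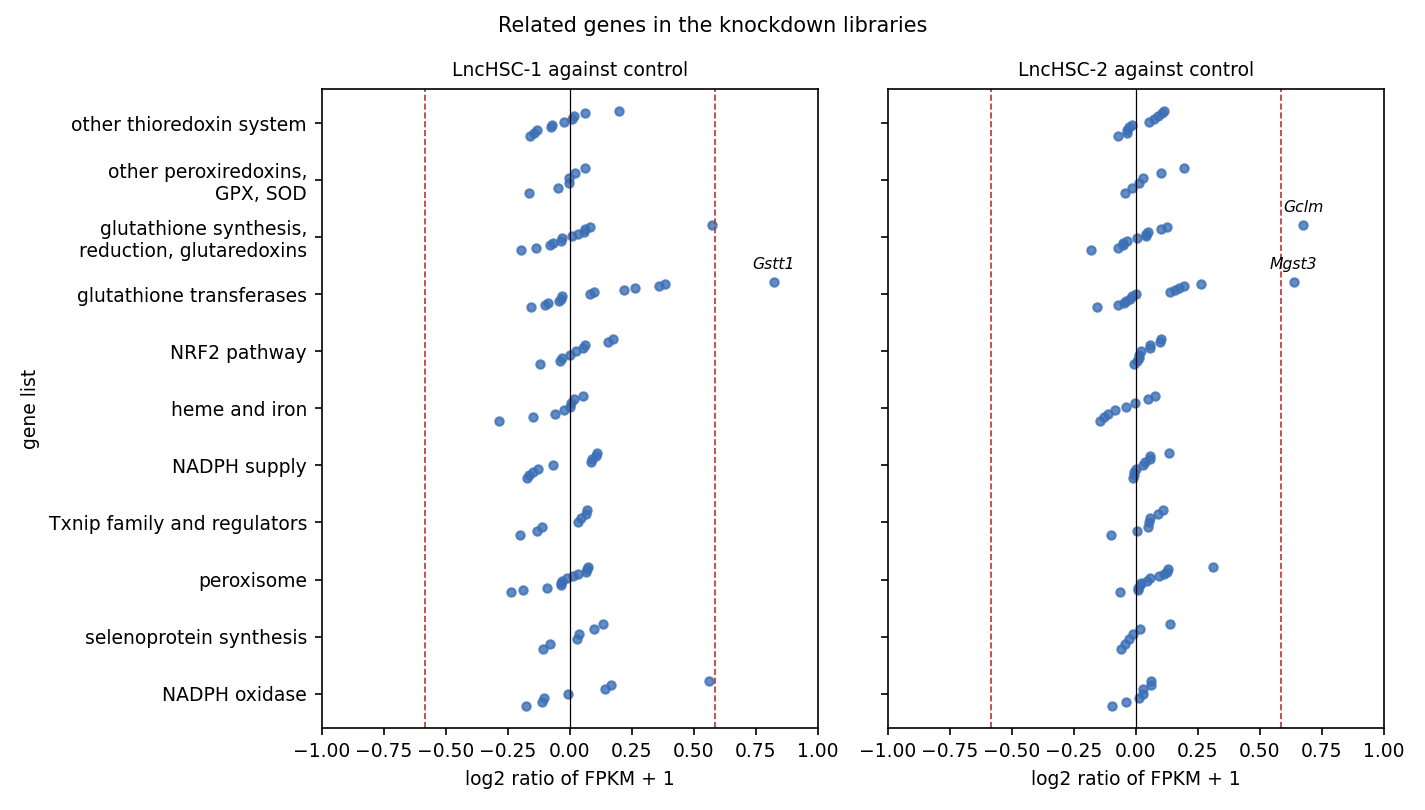
Log2 ratio of FPKM + 1 of the related genes above the floor, 1 point a gene in 11 lists, for LncHSC-1 (left) and LncHSC-2 (right) against control; dashed lines mark 1.5-fold. Gstt1 (0.82) lies past the line on the left, and Gclm (0.67) and Mgst3 (0.64) on the right.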

How the data were processed

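The members, the related lists and the comparisons were chosen with earlier results of these data known. Per the file headers, each table gives an FPKM value and a count value per feature; the submitters' processing notes name mm9 and DESeq, and the aligner, the counting tool, strand handling and annotation release were not stated. The granulocyte count columns as deposited are a score: reads times a library factor, rounded, and their FPKM is that score per kilobase over a divisor of 50 M. The KSL count columns as deposited are a signal: reads times 1 factor per library, since below 20 reads 91.7% to 92.1% of values fell within 0.1 of a whole number of steps. Dividing by the step gave estimated depths of 24.1 M, 19.9 M and 21.0 M reads in the LncHSC-1, LncHSC-2 and control libraries; no count test was applied, for want of replicates.

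FPKM as scaled by the authors was the main measure; its median-of-ratios factors were 0.996, 1.00 and 1.00 in the LncHSC-1, LncHSC-2 and control libraries. Features with a mean of at least 5 FPKM over the KSL libraries entered the comparisons as log2 ratios of FPKM + 1, which understate the change of low genes, and 1.5-fold was the rule of size. Intervals (95%, exact binomial) treat the estimated reads of a gene in a pair of libraries as a split count, divide by each library's reads per FPKM, and use no pseudocount. The interval code was tested on simulated counts. Related genes are named if past 1.5-fold in any comparison, or if highest in mean level or outermost in ratio in their list; where another is named, the text says so. The list names Flvcr1 and Ftl2 were not found. Computation used Python 3.11.15, pandas 2.3.3, numpy 2.4.6, scipy 1.17.1 and matplotlib 3.10.9.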

Additional observations from a re-analysis of the deposited data

Results flagged for a closer look

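Gpx1 lay on opposite sides of control in the 2 knockdown libraries, with log2 ratios of −0.080 in LncHSC-1 against control and 0.077 in LncHSC-2 against control and counting intervals that both exclude 0. With 1 library in each group the difference was not tested. Under the scaled counts as deposited both ratios were negative, so the opposite directions depend on how the LncHSC-2 library is scaled.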

How the results depend on the processing

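The count of members past 1.5-fold was 0 in all 3 comparisons under both scalings of the count columns, pseudocounts of 0.1 and none, no floor, a floor of 10 FPKM and a 2-fold rule. The median log2 ratio of the members was −0.12 in LncHSC-2 against control and 0.050 in LncHSC-1 against LncHSC-2 with the scaled counts as deposited, where all features stood at −0.14 and 0.12, and it moved little once these counts were centred. With named genes only, the features past 1.5-fold numbered 66 in place of 204 in LncHSC-1 against control, 31 in place of 162 in LncHSC-2 against control and 59 in place of 211 in LncHSC-1 against LncHSC-2. Related genes past 1.5-fold, recounted under settings chosen after seeing the data, numbered 0 to 3, 0 to 2 and 0 to 2 in these comparisons. In LncHSC-1 against control Cybb also passed with the scaled counts as deposited or centred, with a pseudocount of 0.1 and without one. Gclm passed there with the centred counts, at a log2 ratio of 0.593. Leaving out either granulocyte replicate left 9 members at 5 FPKM or more, and 8 reached 10 FPKM. Plain feature lengths, an alternative chosen after seeing the data, moved no KSL share by 1.5 times. The granulocyte shares could not move, because these lengths were derived from the granulocyte values. No paired analysis was possible because each KSL group has 1 library. Depth limits Hmox1 most.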
